A study of Mus musculus with 8 samples.

Results

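A set of 9 genes of plasma cells was followed across mouse spleens that had received cells from DBA or B10.D2 donors. The genes were the regulators Prdm1, Irf4, Xbp1 and Pou2af1, the surface marker Sdc1, and Jchain, Mzb1, Derl3 and Creld2, which serve antibody assembly or the secretory pathway. All probes that the platform annotation gives to these 9 genes were taken, which were 13 of the 25697 probes on the array. Of these 13, 9 probes of 7 genes were above background on enough arrays to be tested, among 12950 tested probes. The 4 probes left out of the test were both probes of Prdm1, the only probe of Jchain and 1 of 3 probes of Sdc1.

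The recipients in both groups were 10-week-old B6D2F1J mice, the F1 hybrid of C57BL/6 and DBA/2, and spleen RNA was taken 14 days after engraftment. Arrays from recipients of DBA cells (4 arrays, called DBA donor) were compared with arrays from recipients of B10.D2 cells (4 arrays, called B10.D2 donor). B10.D2 is a C57BL/10-derived strain that carries the H-2d haplotype of DBA/2, and it is not itself a parent of this hybrid. The labels give neither the number or kind of cells transferred nor whether replicates were separate mice, and spleens of ungrafted recipients were not analysed here. P-values therefore reflect only how much these arrays varied, part of which may be technical.

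Plasma cells are the antibody-secreting end stage of B cells. Blimp-1 (Prdm1) and IRF4 switch off the B cell programme and switch on secretion, and XBP1, activated when its mRNA is spliced by the ER stress sensor IRE1, enlarges the endoplasmic reticulum (ER) to carry the antibody load. The parent-into-F1 transfer of DBA/2 cells is known for B cell activation and lupus-like autoantibodies.

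None of the 9 tested probes differed between donors past the threshold, an adjusted p under 0.05 in limma with Benjamini-Hochberg adjustment over all 12950 tested probes. At this threshold 0.0695% of all tested probes were called (0.0618% as higher with the DBA donor, 0.00772% as lower), and 0.0463% in the fit without B10.D2 donor replicate 4. At an unadjusted p under 0.05 there were 5 of the 9 probes, among them 1 Sdc1 probe that the DBA donor arrays alone brought past the filter, and all 5 had the higher mean in DBA donor spleens. Of all tested probes 14.5% reached that level, 7.09% higher and 7.4% lower. Differences were positive for 9 of the 9 probes and 49% of all tested probes. When B10.D2 donor replicate 4 was left out, the array that was lowest for most of these genes, 2 of the 9 reached it, both of Creld2, where 18.1% of all tested probes did, and 8 of the 9 differences were positive (48.7% of all tested probes). The median log2 difference of the 9 probes was 0.41 (DBA donor minus B10.D2 donor), or 0.30 without that array, against -0.0045 and -0.0069 over all tested probes. For 0 of the 9 probes did the 2 groups of arrays separate without overlap, with or without that array, while they did for 8.37% of all tested probes (17% without that array). These counts and medians include both tested Sdc1 probes, which met the filter through the DBA donor arrays alone. Both Sdc1 differences were positive with and without that array, and neither is taken as support.

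B10.D2 donor replicate 4 stood apart in other ways. Of 23 listed probes for pancreatic enzymes and other pancreas genes, 20 were above background on it and 2 to 3 on every other array. The summed normalized intensity of these 23 probes was 20157 on it, 850 to 968 on the other B10.D2 donor arrays and 908 to 1026 on the DBA donor arrays. Cela1, a pancreatic elastase, read 10.87 on it, 8.32 to 8.67 on the other B10.D2 donor arrays and 8.58 to 8.96 on the DBA donor arrays. Pancreatic acinar cells are secretory cells that also make XBP1 and the ER proteins counted here. The part of pancreas RNA in the plasma cell values of that array was not tested. Between 12601 and 13320 probes were above background per array, and the B and T lineage and macrophage genes Ms4a1, Cd79a, Cd3e, Cd4, Spic and Siglec1 were above background on all 8 arrays. These are bulk samples, so fewer plasma cells and less RNA per plasma cell cannot be told apart.

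Among the regulators, Prdm1 encodes Blimp-1, the repressor that ends the B cell programme. Neither of its 2 probes was above background on any of the 8 arrays, with raw intensities of 111.0 to 120.9 on B10.D2 donor and 103.9 to 111.0 on DBA donor arrays for the first. For the second they were 111.2 to 116.9 and 99.1 to 112.2. These probes therefore gave no level of Prdm1 to compare. A signal below background does not show that the gene was silent.

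Xbp1, the transcription factor that drives ER expansion, had a bright probe. Its normalized log2 intensity was 12.84, 12.68, 12.83 and 12.39 on DBA donor replicates 1 to 4. On B10.D2 donor replicates 1 to 4 it was 12.72, 12.24, 12.21 and 11.49. The DBA donor arrays lay close together, and B10.D2 donor replicate 1 lay among them, while replicate 4 was the lowest of all 8. The log2 difference was 0.52 (SE 0.22, 95% confidence interval 0.034 to 1.01, 1.44-fold, limma unadjusted p = 0.0384, adjusted p = 0.315). With 7 arrays, leaving out B10.D2 donor replicate 4, it was 0.30 (SE 0.15, 1.23-fold, limma adjusted p = 0.337), and without B10.D2 donor replicate 1 it was 0.71 (limma adjusted p = 0.195). The probe reads total Xbp1 RNA as annotated, and spliced and unspliced forms were not separated.

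Irf4, the factor that works with Blimp-1 and is also made by activated T cells and some dendritic cells, also had its lowest value on B10.D2 donor replicate 4. It stood at 9.66, 9.29, 9.59 and 9.39 on DBA donor replicates 1 to 4. It stood at 9.53, 9.14, 9.28 and 8.60 on B10.D2 donor replicates 1 to 4. B10.D2 donor replicate 1 lay within the DBA donor range, and the other 3 B10.D2 donor arrays lay below all DBA donor arrays, replicate 3 only just. The log2 difference was 0.35 (SE 0.18, limma adjusted p = 0.409), and 0.17 (SE 0.13, limma adjusted p = 0.523) without that array.

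Pou2af1 encodes OBF-1, a coactivator of octamer-binding factors that B cells and plasma cells share. DBA donor replicates 1 to 4 read 12.29, 11.90, 12.16 and 12.21. B10.D2 donor replicates 1 to 3 read 12.27, 12.12 and 12.12, and replicate 4 read 11.36. With 7 arrays the groups lay on top of each other, at a log2 difference of -0.029 (95% confidence interval -0.28 to 0.22). With all 8 arrays it was 0.17 (95% confidence interval -0.23 to 0.58, limma adjusted p = 0.711). Direction in this gene thus turned on 1 array.

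The marker Sdc1, or CD138, is a heparan sulfate proteoglycan of the plasma cell surface that epithelial cells also carry. All 3 of its probes were dim. Probe ILMN_2756943, above background on 4 of 4 DBA donor and 3 of 4 B10.D2 donor arrays, read 5.60, 4.99, 5.78 and 5.12 on DBA donor replicates 1 to 4 and 5.59, 5.16, 5.21 and 4.84 on B10.D2 donor replicates 1 to 4. The groups overlapped over most of their range. They had means of 5.37 ± 0.38 and 5.20 ± 0.31 (SD, n = 4 each) and differed by 0.17 (limma adjusted p = 0.736). Probe ILMN_1228718, above background on 4 of 4 and 2 of 4 arrays, read 5.51, 4.99, 5.41 and 5.16 with the DBA donor and 5.16, 5.08, 4.60 and 4.71 with the B10.D2 donor. Its lowest array was B10.D2 donor replicate 3. It had means of 5.27 ± 0.24 and 4.89 ± 0.28 (SD, n = 4 each) and differed by 0.38 (SE 0.16, limma unadjusted p = 0.0334, adjusted p = 0.304). Both of these probes met the filter through the DBA donor arrays alone, and neither would have met it through the B10.D2 donor arrays alone. They are included in the counts and medians given for the 9 tested probes, but neither is taken as support. The differences were 0.053 and 0.32 in the fit without B10.D2 donor replicate 4. The third probe was not above background on any array.

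Jchain, the joining chain of IgM and IgA polymers, was above background on DBA donor replicates 2 and 3 and on 0 of 4 B10.D2 donor arrays, with means of 4.98 and 4.73. DBA donor replicates 1 and 4, at 4.78 and 4.81, lay below B10.D2 donor replicate 1 at 4.87, so the groups overlapped and no fold is given. Mzb1, an ER chaperone of B cells and plasma cells that helps antibody assembly, was above background on all 8 arrays. It read 13.43, 13.21, 13.47 and 13.21 on DBA donor replicates 1 to 4. It read 13.52, 13.11, 13.05 and 12.00 on B10.D2 donor replicates 1 to 4. The highest and the lowest array of all 8 were both B10.D2 donor arrays. The log2 difference was 0.41 (SE 0.26, limma adjusted p = 0.509), and 0.10 (SE 0.13, 95% confidence interval -0.19 to 0.40) without replicate 4. On that array Mzb1 was 2.34-fold below the mean of the other 3 of its group. No immunoglobulin heavy or light chain gene symbol is among the named probes (0 probes), so no probe could be read as antibody RNA here. The 1719 probes without a symbol were not searched for such genes.

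Derl3 and Creld2 are both targets of the ER stress response. Derl3 encodes Derlin-3, a membrane protein that helps to return misfolded proteins from the ER for degradation, and Creld2 encodes a secreted and ER-resident protein induced by ER stress. Their promoter windows are shown because both hold an ER stress element, the site bound by ATF6 and XBP1 together with NF-Y. That of Pou2af1 is shown because it holds a core of XBP1 response sites. The windows run from 250 bases before to 50 bases after the RefSeq start, on GRCm38.p6, and are written 5′ to 3′ along the gene. Capitals mark the fixed bases of a match and the lower case bases between them are free.
Derl3 chr10:75893148-75893447 (+ strand): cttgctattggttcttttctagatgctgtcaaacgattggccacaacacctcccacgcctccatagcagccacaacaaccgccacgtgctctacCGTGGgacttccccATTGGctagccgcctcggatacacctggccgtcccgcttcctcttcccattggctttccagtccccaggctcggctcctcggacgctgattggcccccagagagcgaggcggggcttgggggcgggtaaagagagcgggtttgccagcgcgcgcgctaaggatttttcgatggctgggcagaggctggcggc
Creld2 chr15:88819396-88819695 (+ strand): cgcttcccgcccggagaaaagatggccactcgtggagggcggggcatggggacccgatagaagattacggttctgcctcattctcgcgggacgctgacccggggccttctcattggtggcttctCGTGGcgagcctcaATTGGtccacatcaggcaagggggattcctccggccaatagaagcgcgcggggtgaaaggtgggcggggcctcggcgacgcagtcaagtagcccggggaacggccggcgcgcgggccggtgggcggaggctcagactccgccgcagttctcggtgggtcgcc
Pou2af1 chr9:51213440-51213739 (+ strand): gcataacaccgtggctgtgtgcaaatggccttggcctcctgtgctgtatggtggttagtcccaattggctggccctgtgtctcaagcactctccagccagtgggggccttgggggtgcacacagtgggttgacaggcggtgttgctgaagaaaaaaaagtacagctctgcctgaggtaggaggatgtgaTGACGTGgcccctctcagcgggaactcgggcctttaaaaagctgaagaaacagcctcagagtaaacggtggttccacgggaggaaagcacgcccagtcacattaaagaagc

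The ER stress element was searched as CCAAT, 9 free bases and CCACG on both strands. No window was used for Mzb1. Windows of 1 chromosome were left out of the member and list counts but kept in the count over all genes. It occurred in 2 of the 8 windows of the members (25%), in both cases on the reverse strand, and in 39 of 32851 windows of all genes (0.119%). In Derl3 it spans bases 156 to 138 upstream of the start (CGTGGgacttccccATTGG), and in Creld2 bases 126 to 108 (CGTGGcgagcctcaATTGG). Of the 33 windows of a list of ER secretory genes, 7 held it (21.2%). The shorter core TGACGTG was found in 1 of the 8 member windows, that of Pou2af1 at bases 61 to 55 upstream, and in 2.01% of all windows. Neither ATTGG, 1 free base and CCACG, a variant of the ER stress element, nor the octamer ATGCAAAT was found in any member window (0 of 8 for both), against 0.0365% and 1.74% of all windows. A match is a description of the letters and not a measured binding site.

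Creld2, the gene with the smallest p among the members, was measured by 2 probes. Probe ILMN_2757368 read 10.86, 10.78, 10.80 and 10.39 on DBA donor replicates 1 to 4. It read 10.67, 9.90, 10.04 and 8.97 on B10.D2 donor replicates 1 to 4. Probe ILMN_2983948 read 10.80, 10.67, 10.61 and 10.47 on DBA donor replicates 1 to 4, and 10.54, 9.76, 9.85 and 9.04 on those of the B10.D2 donor. On both probes B10.D2 donor replicate 1 lay above DBA donor replicate 4, and the other 3 B10.D2 donor arrays lay below all DBA donor arrays. The log2 difference was 0.82 (SE 0.29, 1.76-fold, limma unadjusted p = 0.0169, adjusted p = 0.244) and 0.84 on probe ILMN_2983948 (SE 0.25, limma unadjusted p = 0.00675, adjusted p = 0.206). In the 7 arrays that leave out B10.D2 donor replicate 4, the differences were 0.51 (95% confidence interval 0.10 to 0.92, limma adjusted p = 0.205) and 0.59 (95% confidence interval 0.20 to 0.98, limma adjusted p = 0.161). Both intervals lay above 0, before adjustment over all probes.

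Derl3 read 7.36, 7.31, 7.30 and 7.05 on DBA donor replicates 1 to 4, a narrow band. It read 7.52, 6.61, 6.27 and 5.25 on B10.D2 donor replicates 1 to 4, the widest spread of any member. The log2 difference was 0.84 (SE 0.37, limma adjusted p = 0.331), and 0.45 (95% confidence interval -0.082 to 0.99, limma adjusted p = 0.348) without replicate 4. With B10.D2 donor replicate 1 left out instead, it was 1.21 (limma adjusted p = 0.136).

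**Figure D1:**
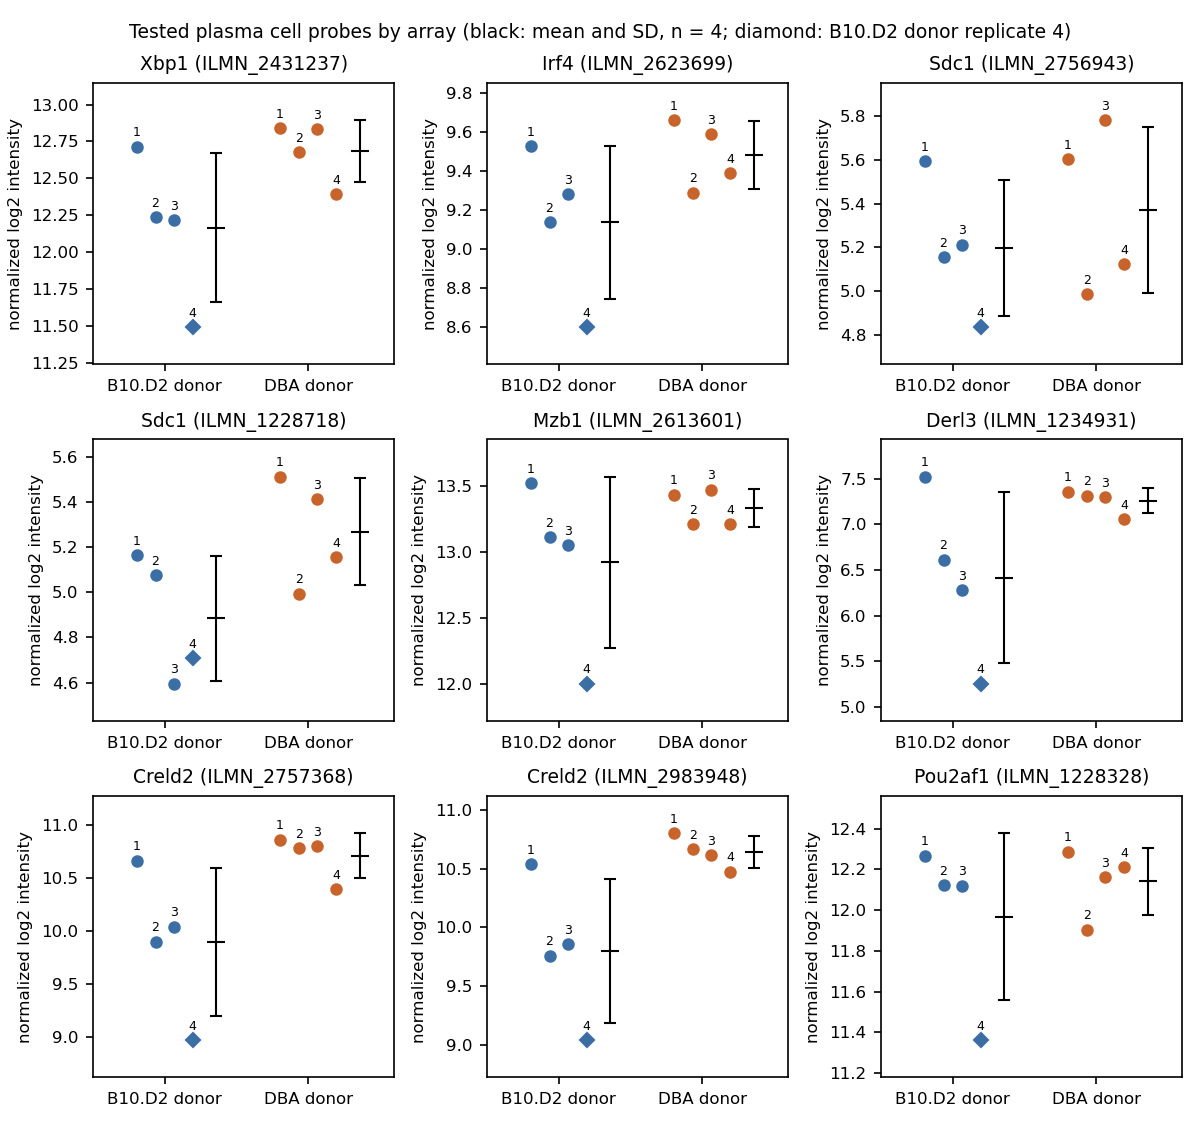
Normalized log2 intensity (vertical axis) of the 9 tested probes on the 8 arrays, numbered by replicate, with mean and SD of each group of 4 in black. The diamond, B10.D2 donor replicate 4, is the lowest of the 8 arrays in 8 of the 9 panels.

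**Figure D2:**
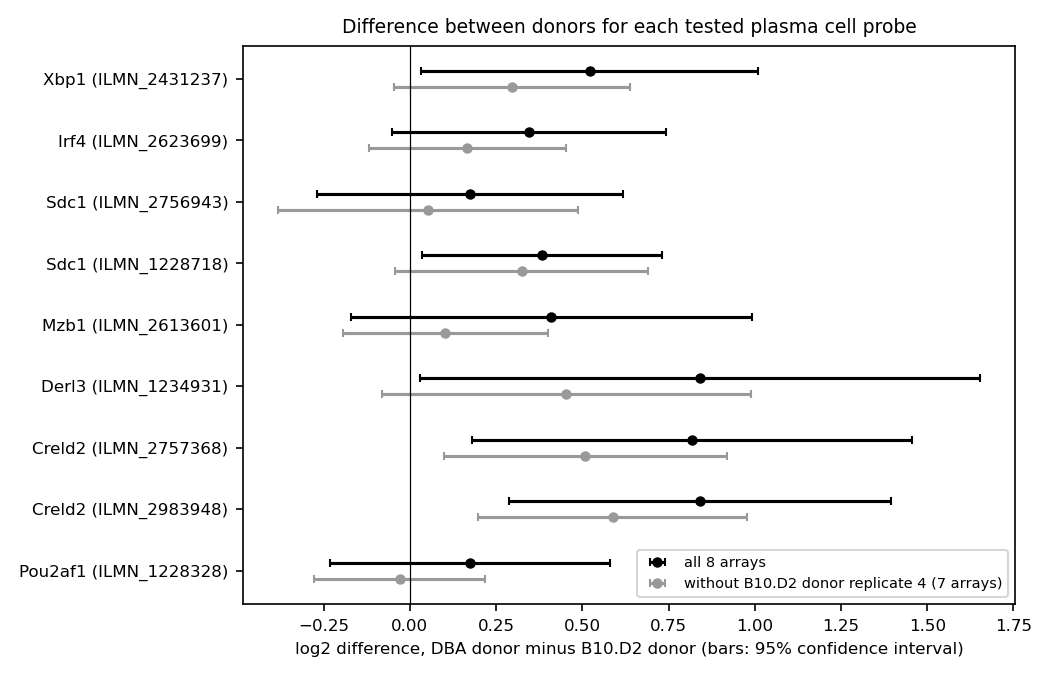
Log2 difference, DBA donor minus B10.D2 donor (horizontal axis), with its 95% confidence interval for each tested probe (vertical axis), with all 8 arrays in black and without B10.D2 donor replicate 4 in grey. The values for Creld2 are 0.82 and 0.84 with all arrays and 0.51 and 0.59 with 7, while Pou2af1 moves from 0.17 to -0.029.

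The members' values went up and down together from array to array. B10.D2 donor replicate 4 was the lowest of all 8 arrays for 8 of the 9 tested probes, which held for 17.8% of all tested probes. B10.D2 donor replicate 1 was the highest for 2 of them, Mzb1 and Derl3, as for 13.9% of all tested probes. On replicate 4, Mzb1, Derl3 and both Creld2 probes were at least 2-fold below the mean of the other 3 arrays of its group, as were 0.425% of all tested probes. Averaged over 1 probe of each of the 7 tested genes and centred on its mean over 8 arrays, the level was 0.39, 0.12, 0.37 and 0.06 on DBA donor replicates 1 to 4. It was 0.35, -0.15, -0.16 and -0.98 on B10.D2 donor replicates 1 to 4. In this order B10.D2 donor replicate 1 stood with the highest DBA donor arrays, and B10.D2 donor replicates 2 and 3 lay below the lowest DBA donor array. Against the mean of the other 6 genes, each gene's correlation over the 8 arrays ran from 0.751 (Sdc1) to 0.982 (Xbp1). Over 7 arrays, without replicate 4, it ran from 0.37 (Pou2af1) to 0.959 (Mzb1). These correlations describe arrays that share their RNA sample across genes and carry no test.

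The probes most like this average over the 8 arrays included those of a further plasma cell regulator. Bhlha15 encodes MIST1, a transcription factor of secretory cells that acts downstream of XBP1, and 3 of its probes were among the 8 most alike of 12054 named probes, with r of 0.990 to 0.995 (0.961 to 0.981 over 7 arrays). The others were Slc39a1, a zinc transporter (r = 0.998), Fkbp11, a prolyl isomerase of the secretory pathway (r = 0.988), Krtcap2, a subunit of the oligosaccharyltransferase complex (r = 0.988), Rsph1 (r = 0.988) and Msi2, an RNA-binding protein (r = 0.988). Among the 12054, 186 had r above 0.9, and 171 did so over 7 arrays. Probe ILMN_2651389 of Bhlha15 read 8.08, 7.94, 8.19 and 7.65 on DBA donor replicates 1 to 4. It read 8.23, 7.34, 7.11 and 5.83 on B10.D2 donor replicates 1 to 4, so that replicate 4 was 3.32-fold below the mean of the other 3. Its log2 difference between donors was 0.84 (SE 0.39, limma adjusted p = 0.365), or 0.41 without replicate 4. Fkbp11 was 3.88-fold lower on replicate 4 than on the other 3 and differed between donors by 0.81 (limma adjusted p = 0.414), or 0.32 when that array was left out.

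**Figure D3:**
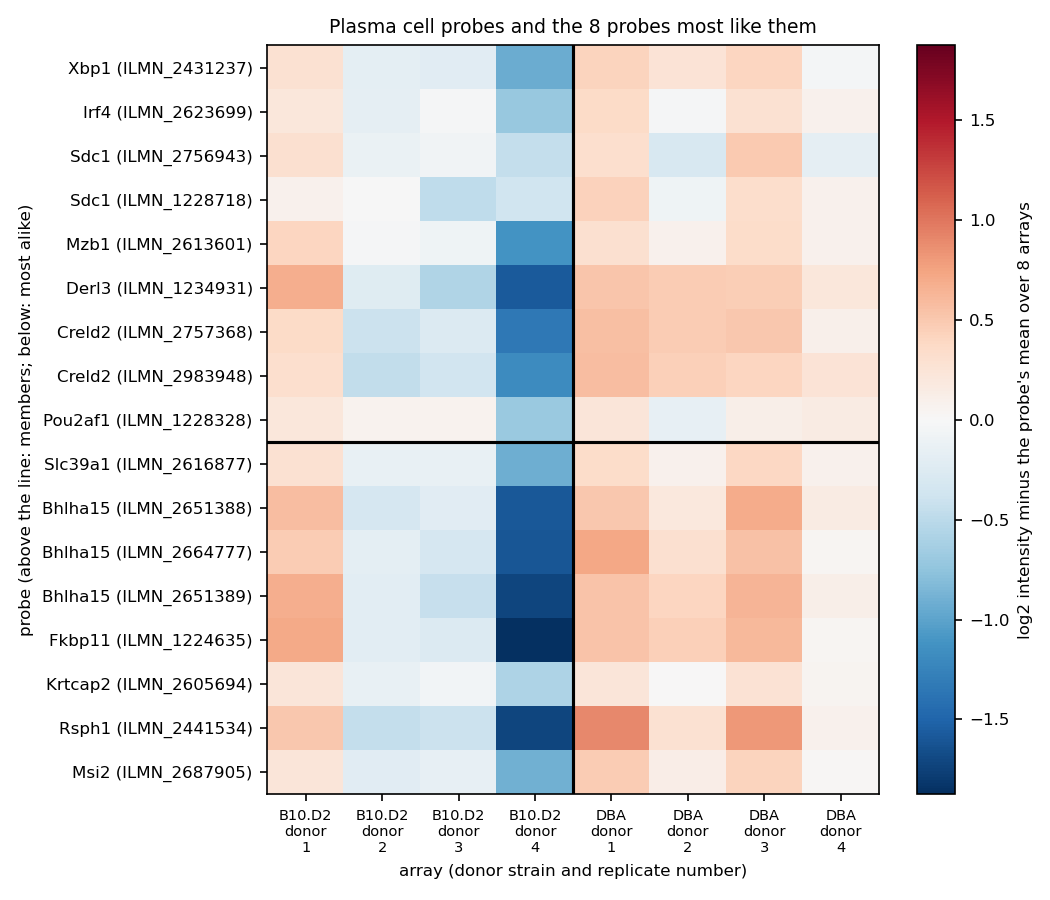
Log2 intensity of each probe minus its mean over 8 arrays (colour), for the 9 tested member probes above the line and the 8 most similar probes below it, with arrays in columns. The column of B10.D2 donor replicate 4 is the bluest, and that of B10.D2 donor replicate 1 has the colours of the DBA donor arrays.

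Other plasma cell genes mostly had small positive differences. Of 26 listed genes 23 had a probe and 21 were tested, 17 with a positive and 4 with a negative difference, at a median of 0.15, and 0 passed (3 of 21 at an unadjusted p under 0.05, all higher, close to the 14.5% of all tested probes). Sec11c, a signal peptidase subunit, differed by 0.40 (limma adjusted p = 0.267), with DBA donor arrays at 9.41 to 9.79 and B10.D2 donor arrays at 8.71 to 9.34. Its groups did not overlap, as for 8.37% of all tested probes. Fkbp2, an ER prolyl isomerase, differed by 0.32, and Plpp5, a lipid phosphatase, by 0.48. With B10.D2 donor replicate 4 left out, Sec11c stood at 0.26, Fkbp2 at 0.24 and Plpp5 at 0.28. Tnfrsf17 (BCMA), the survival receptor of plasma cells, went the other way at -0.20 (limma adjusted p = 0.661), and Tnfrsf13b (TACI) stood at 0.019; both were picked after their values were seen. On the 7 arrays they stood at -0.33 and -0.076, so the sign of Tnfrsf13b turned. The other negative genes on all 8 arrays were Cd27 (-0.18), Slamf7 (-0.12) and Cd93 (-0.059), also named after their values were seen. Over the list, the 7 arrays gave 12 positive and 9 negative differences at a median of 0.084, with 1 higher and 1 lower gene at that unadjusted level. The higher gene was Sec11c, and the lower was Cd27 at -0.32 (limma unadjusted p = 0.0285, adjusted p = 0.228).

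Genes of the ER machinery mostly had positive differences, like Creld2. Of 41 listed genes of protein translocation, folding and ER export 36 had a probe and 31 were tested, and 0 passed. Of the 31, 28 had a positive difference, at a median of 0.27, against 49% of all tested probes. At an unadjusted p under 0.05 were 10, all higher. For this list and those below, 14.5% of all tested probes reached that level (7.09% higher, 7.4% lower), or 18.1% on 7 arrays. Kdelr2, the receptor that returns ER proteins from the Golgi, differed by 0.46 (SE 0.15, limma adjusted p = 0.224). Srp19, a protein of the signal recognition particle, differed by 0.48 (limma adjusted p = 0.225), with 6.66 to 7.31 on DBA donor and 6.19 to 6.58 on B10.D2 donor arrays. The chaperone Calr had the smallest p of the list (log2 difference 0.72, limma adjusted p = 0.0894). On the 7 other arrays, that is, B10.D2 donor replicate 4 left out, there were 25 positive differences at a median of 0.16. At an unadjusted p under 0.05 were 6 of the 31 genes, all higher, a share near the 18.1% of all tested probes. Calr stood at 0.63 (limma adjusted p = 0.0787), Srp19 at 0.54 and Kdelr2 at 0.36. Among sensors and effectors of the unfolded protein response 8 of 12 genes were tested and 0 passed (2 at an unadjusted p under 0.05, both higher). Xbp1 is 1 of the 2, and Chac1, a glutathione-degrading enzyme induced by ATF4, is the other (0.48, limma adjusted p = 0.228). Leaving out B10.D2 donor replicate 4 changed the pair to Chac1 (0.37) and Asns, asparagine synthetase, which moved from 0.37 to 0.70 (limma unadjusted p = 0.0088, adjusted p = 0.164) and was named after its values were seen, while Xbp1 had an unadjusted p of 0.0818 in limma. Ern1, which encodes IRE1, was not above background on any array.

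Genes of the B cell programme, many of which Blimp-1 is known to repress, leaned the other way, and so did the T cell and macrophage lists below. A role of Blimp-1 in this was not tested. Of 24 listed genes 19 were tested, 4 with a positive and 15 with a negative difference, at a median of -0.13, and 0 passed (unadjusted p under 0.05 for 1 higher and 4 lower genes). Cd79a, a signalling chain of the B cell receptor, differed by -0.37 (limma adjusted p = 0.22) and Ets1, a transcription factor that restrains plasma cell formation, by -0.35 (limma adjusted p = 0.267). Ebf1, a B lineage transcription factor, went against the list at 0.43 (limma adjusted p = 0.184). Once B10.D2 donor replicate 4 was set aside, 18 of 19 differences were negative at a median of -0.25. Of the 19, 9 were lower at an unadjusted p under 0.05, a level that 18.1% of all tested probes reached in either direction. On those 7 arrays the T cell list had 11 negative differences and 1 positive, at a median of -0.24. The macrophage list had 11 negative and 2 positive, at a median of -0.060. The proliferation list had 17 positive and 0 negative. Pax5 was not above background on any array. Of 17 genes that induce or sustain plasma cells 11 were tested and 0 passed (unadjusted p under 0.05 for 3 higher genes and 1 lower, or 3 and 3 without B10.D2 donor replicate 4). Il10 differed by 0.40 and Il21r by 0.34, while Cxcl12, the chemokine that holds plasma cells in their niche, differed by -0.35 (limma adjusted p = 0.141). Cxcl12 read 11.53 to 11.65 on DBA donor and 11.80 to 11.97 on B10.D2 donor arrays, which did not overlap, as for 8.37% of all tested probes.

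Markers of other cell types varied between arrays as well. The summed normalized intensity of the 19 tested B cell programme genes was 25640 on B10.D2 donor replicate 4, 31285 to 32739 on the other B10.D2 donor arrays and 22462 to 29309 on the DBA donor arrays. DBA donor replicate 2, with the lowest B cell sum, had a plasma cell sum over the 7 tested genes of 22406. That plasma cell sum was 10557 on B10.D2 donor replicate 4, 19464 to 25996 on the other B10.D2 donor arrays and 21754 to 26260 on the DBA donor arrays.

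Mean log2 levels of 9 tested germinal centre B cell genes were 7.74 on B10.D2 donor replicate 4, 8.53 to 8.66 on the rest of its group and 8.23 to 8.59 on DBA donor arrays. None of the 9 passed the limma test (unadjusted p under 0.05 for 0 higher genes and 1 lower). Differences of this list were positive for 8 genes and negative for 1, at a median of 0.056. With B10.D2 donor replicate 4 left out, 2 were positive and 7 negative, at a median of -0.11. Means of 12 tested T cell genes were 8.29 on that array, 8.71 to 8.78 on the rest of its group and 8.28 to 8.73 on DBA donor arrays, and 0 passed (2 lower at an unadjusted p under 0.05). Means of 9 tested erythroid genes were highest on B10.D2 donor replicate 4 (11.66), with DBA donor replicate 2 next (11.60) and the other 6 arrays at 10.62 to 11.13, and 0 passed (0 at an unadjusted p under 0.05 in either direction). Means of 17 tested proliferation genes were highest on DBA donor replicate 2 (9.33), with B10.D2 donor replicate 4 next (9.18), and 0 passed (2 higher at an unadjusted p under 0.05). With B10.D2 donor replicate 4 left out, the genes at that level were 4 lower for T cells and 8 higher for proliferation, with 0 passing in either list. DBA donor replicate 2 was high in both the erythroid and the proliferation list, while its plasma cell average was 0.12 above the mean of the arrays.

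Plasmacytoid dendritic cells also make Mzb1, and of 9 tested genes of these cells 8 had negative differences at a median of -0.23, with 0 passing (2 lower at an unadjusted p under 0.05). Their summed normalized intensity was 6764 to 7520 on B10.D2 donor arrays and 5915 to 6749 on DBA donor arrays, and Siglech, their surface lectin, differed by -0.62 (limma adjusted p = 0.191). Of 13 tested macrophage genes 0 passed (2 lower at an unadjusted p under 0.05), with means of 10.41 to 10.67 on B10.D2 donor and 10.37 to 10.51 on DBA donor arrays. The part of these cell types in the plasma cell values was not tested.

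**Figure D4:**
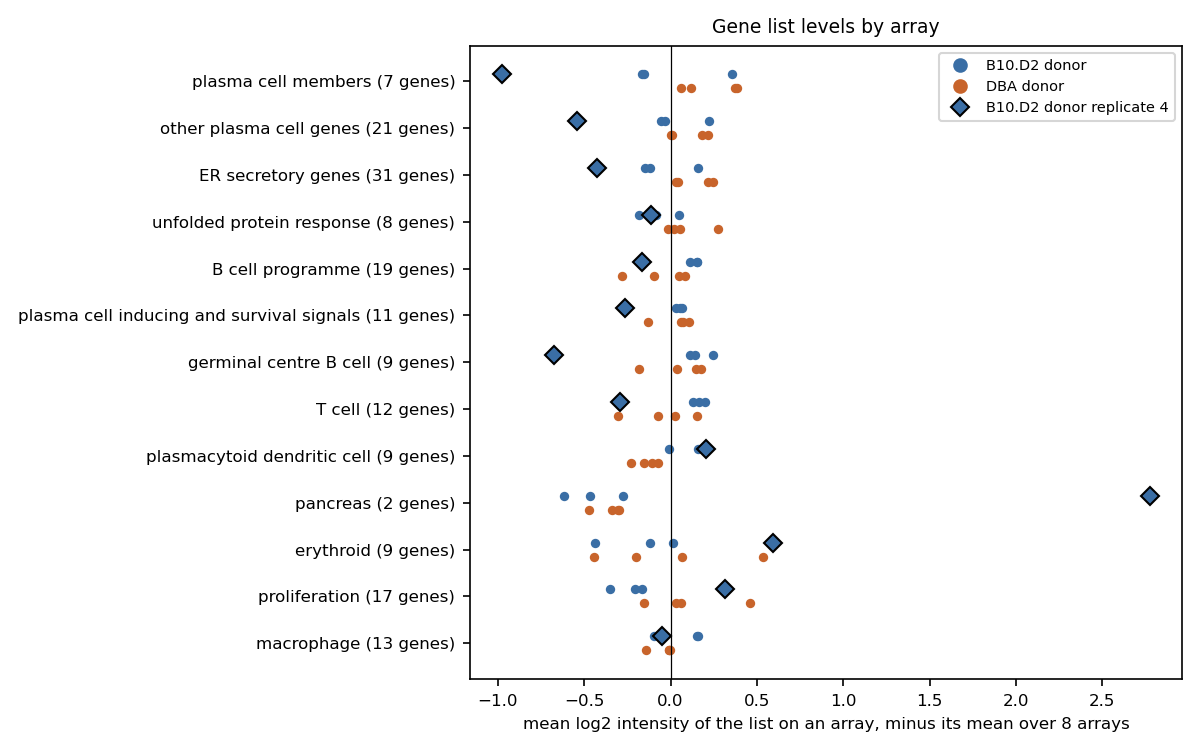
Mean log2 intensity of each gene list on each array, minus the mean of the list over 8 arrays (horizontal axis), with the lists and their numbers of tested genes on the vertical axis. The diamond, B10.D2 donor replicate 4, is far left for plasma cell genes (-0.98) and far right for the 2 tested pancreas genes.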

How the data were processed

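Spleen RNA of 8 samples was labelled and hybridised to Illumina MouseRef-8 v2.0 BeadChips. The authors deposited non-normalized intensity values, the average bead signal of each probe, with a detection p-value against each array's negative controls, per the file headers. They also deposited a second table of processed intensity values, whose making was not given in the sources used here and which served as an alternative only. GenomeStudio is named, with no version, per the submitters' processing notes.

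Background correction (normexp from the detection p-values, offset 16), quantile normalization and log2 used neqc of limma 3.58.1 in R 4.3.3; this offset makes differences of dim probes smaller. A probe was tested where its detection p was below 0.05 on 4 or more of the 8 arrays, whichever their group. The two-sided test was lmFit and eBayes, with Benjamini-Hochberg adjustment over all 12950 tested probes, in the direction DBA donor minus B10.D2 donor. Leaving out an array kept the normalized values and the tested probes. A listed gene is represented by its tested probe with the highest mean. Named were all members, up to 3 genes of a list by smallest p, Cela1, and the 8 named probes with the highest Pearson r to the members' average. Outside this rule, Tnfrsf17, Tnfrsf13b, Cd27, Slamf7, Cd93, Asns, the untested Ern1 and Pax5, and the genes of the last section were chosen after their values were seen. Members and lists were chosen with earlier results of these data known. A gene symbol was listed for 23978 of 25697 probes. No genome build was given for the probes in the labels or headers; promoter windows are RefSeq's on GRCm38.p6. Simulated data of this comparison had 12950 probes, with 50 changed at each of 1.5-, 2-, 3- and 4-fold. Of these, 56% of those changed by 1.5-fold and 84% by 2-fold were recovered, and 8 unchanged probes were called. Whether this holds for genes that go up and down together from array to array, as the members do, was not tested. Creld2 probe ILMN_2983948 and Derl3, each at 1.79-fold, were not called (limma adjusted p = 0.206 and 0.331). The simulated shares are therefore not read as power for the members. The number of arrays limits the precision. Alternatives were other offsets, scaling, the second table, filters, variance models, array weights, a replicate block and the loss of each array. Plots used matplotlib 3.10.9 (Python 3.11.15).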

Additional observations from a re-analysis of the deposited data

Results flagged for a closer look

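Each tested member probe and each list mean was screened within each donor group. In 8 of 44 such groups of 4 arrays, 1 array lay far from the rest, measured as the gap to its nearest neighbour over the whole range of the group. Chance gives about 2.2. The 44 groups share the same 8 arrays and overlapping genes, and the lists were chosen with earlier results known. No excess over chance is therefore read from this count. B10.D2 donor replicate 4 accounted for 6 of them. It was the highest of its group for the mean of the 2 tested pancreas genes (10.46 against 7.07 to 7.41, share 0.898). It was lowest for Pou2af1 (11.36 against 12.12 to 12.27, share 0.838) and for the means of B cell programme genes (9.35 against 9.63 to 9.67, share 0.86), germinal centre genes (7.74 against 8.53 to 8.66, share 0.856), plasma cell inducing and survival signals (7.85 against 8.15 to 8.18, share 0.898) and T cell genes (8.29 against 8.71 to 8.78, share 0.857). Among DBA donor arrays, replicate 4 was lowest for Creld2 probe ILMN_2757368 (10.39 against 10.78 to 10.86, share 0.831) and replicate 2 for the mean of macrophage genes (10.37 against 10.50 to 10.51, share 0.967). The tested probes of Xbp1, Irf4, Mzb1, Derl3 and Sdc1 were not among them.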

How the results depend on the processing

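No member probe was called under any alternative run (0 each), and the differences of all tested member probes but Pou2af1 kept a positive sign. Pou2af1 turned to -0.029 without B10.D2 donor replicate 4, and to -0.027 when that array was left out before normalization, an alternative chosen after seeing the data; over the arrays left out it ran from -0.029 to 0.27. Of 160 member values under the alternatives, the other 158 kept direction and side of the threshold. Leaving out 1 array at a time gave 0.51 to 1.08 and 0.59 to 1.09 for the Creld2 probes, 0.45 to 1.21 for Derl3 and 0.30 to 0.71 for Xbp1, lowest without B10.D2 donor replicate 4 and highest without replicate 1.

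Over all tested probes 9 were called, 8 higher and 1 lower in DBA donor spleens. The counts were 4 and 3 higher with an offset of 1, 18, 16 higher and 2 lower with scaling to the 75th percentile, 38, 21 higher and 17 lower with array weights, and 0, 0 higher and 0 lower with no filter on dim probes (2759 with a limma unadjusted p under 0.05). Lower calls alone moved to 3 with an offset of 50, to 2 with the second table, with a robust trended variance and with replicate 4 left out before normalization, and to 0 with the replicate block. Without 1 array, 0 to 9 were called, 0 to 8 higher and 0 to 1 lower; none (0) were called by limma after the loss of B10.D2 donor replicate 2 or of replicate 3 or 4 of the DBA donor (unadjusted p under 0.05 for 1278, 1230 and 1997), 2 after that of B10.D2 donor replicate 3 and likewise of DBA donor replicate 1, 4 after that of DBA donor replicate 2 and 6 after that of B10.D2 donor replicate 4. The cause was not tested. The replicate block gave 7 calls and 0 of member probes. Same-numbered arrays correlated at -0.35 to 0.34 and 2 of 8 arrays correlated best with their own number, so the number is not taken as a pairing. A slide block was not run, as the headers name no BeadChip. Signal near background limits Prdm1, Jchain and Sdc1.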

Other observations

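In all, 55 tested probes, 4 of them of the 9 genes above, were at least 2-fold lower on B10.D2 donor replicate 4 than the mean of the other 3 arrays of its group, and on 54 of them that array also lay below all DBA donor arrays. The genes below were named after their values were seen. They included ER quality control genes, with Edem1 2.98-fold, Sel1l 2.09-fold and Edem2 2.07-fold lower. Slpi, a secreted protease inhibitor, was 3.93-fold lower, at 10.83 against 13.18 to 13.53 on DBA donor arrays. Mef2b, a transcription factor of germinal centre B cells, was 3.82-fold lower and S1pr2, their confinement receptor, 2.71-fold. Cd28, the T cell costimulatory receptor that long-lived plasma cells also carry, was 2.34-fold and 2.25-fold lower on 2 probes. Ido1, a tryptophan-degrading enzyme, was 3.69-fold lower, and Il33, an alarmin of stromal cells, 2.20-fold.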
